A study of Gallus gallus with 16 samples.

Results

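The pulp of growing primary remiges, the flight feathers of the wing, was compared between the lateral side, which bears the narrow vane, and the medial side, which bears the wide vane. The pulp is the mesenchyme inside the feather cylinder. There were 4 such libraries of 16 in the series, 2 from lateral pulp and 2 from medial pulp, labelled batch I and batch II. The birds were White leghorn chickens, described as roosters, and the age and the number of birds behind a library are not given in the sources used here. Each remige library was made from the proximal follicles of 3 primary remiges with 4 μg of total RNA and read with 50 bp single-end reads. Lateral and medial parts of the follicles were separated by a cut, and the epithelium was separated from the mesenchyme, and the sides of a batch are read here as parts of the same follicles and were compared within a batch. The other remige libraries used here are those of lateral and medial epithelium, which carry the same batch labels. Whether pulp and epithelium with the same label were prepared together or sequenced in the same run is not stated. The library names give the same lane number for all remige libraries except the pulp of batch I, for which they give none. Libraries of dorsal (narrow vane) and breast (wide vane) plume pulp, each made from 25 follicles, were used too. None of the groups carried a treatment or a transgene. The study sought molecules that set vane width, and the lateral side of a primary remige is its narrow-vane group and the medial side its wide-vane group.

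As background, a growing feather is an epithelial cylinder around a core of pulp. The epithelium folds into barb ridges, which start at the barb generative zone and fuse into the rachis at the opposite side. The pulp brings blood vessels and nerves to the epithelium and secretes signals. Bone morphogenetic proteins (BMPs) and their antagonists, WNTs, fibroblast growth factors (FGFs) and retinoic acid are known for acting in feather growth. BMP antagonists bind the ligand outside the cell and keep it from its receptor. R-spondins bind LGR receptors and strengthen WNT signalling, whereas Dickkopf proteins, secreted frizzled-related proteins and WIF1 restrain it. Retinoic acid is made by aldehyde dehydrogenases, carried by cellular binding proteins and broken down by CYP26 enzymes.

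Lateral and medial pulp differed in a limited set of genes. Levels are given in TPM, the deposited RPKM (read numbers scaled to the length of a gene and the size of its library) rescaled to 1000000 per library, and differences as log2 fold changes on the log2(TPM + 1) scale, lateral minus medial, which understates the change of genes at low levels. Of 12954 genes tested, those averaging 1 TPM or more in some remige group, 193 were called at an adjusted p under 0.05 by limma's test (1.49%). Of these, 93 were higher in lateral pulp (0.718% of the genes tested) and 100 lower (0.772%), and 1782 genes had an unadjusted p under 0.05. These shares of genes called higher and lower are the background for the counts of called list members below. The median log2 fold change was 1.18 among the higher genes and -0.98 among the lower genes, against -0.02 over all genes tested, of which 43.6% lay above 0 and 56.3% below 0. In 89 of the 93 higher genes both lateral libraries lay above both medial libraries, against 9.22% of all genes tested. In 88 of the 100 lower genes both lateral libraries lay below both medial libraries, against 12.4% of all genes. The fit compares the sides within a batch and takes its spread from all 8 remige libraries, with 2 residual degrees of freedom. Without the pairing of the sides by batch, 0 genes passed limma's test and 468 had an unadjusted p under 0.05, so every call below rests on the comparison within batches. Leaving out the batch I pair of pulp libraries left 0 genes called, and leaving out the batch II pair left 63, of which 17 were among the 193. Leaving out single pulp libraries, which breaks the pairing, left 0 (lateral I), 11 (lateral II), 0 (medial I) and 1 (medial II). In the main fit the p-values rest on how much the side difference varied from batch I to batch II, pooled over pulp and epithelium. That variation was moderated with that of other genes (prior degrees of freedom 3.72), and each group holds 2 libraries. With a batch pair of pulp left out, the remaining pulp pair adds no such variation, so those counts rest on the variation in epithelium. The 4 pulp libraries held 29.4 to 37 M alignments each (M for 1000000), more in batch I than in batch II on both sides, and the epithelial libraries 42.2 to 45.8 M.

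The pulp libraries carried the genes of connective tissue. The intermediate filament gene VIM, listed as VIMENTIN, was at 5363 and 5345 TPM laterally, against 4999 and 5539 TPM medially (log2 fold change 0.025, SE 0.072, adjusted p = 0.919). The mean in remige epithelium was 18.7 TPM. None of 18 fibroblast markers was called, and their median log2 fold change was 0.02. COL1A2, a chain of type I collagen, was at 2387 and 3504 TPM on the lateral side, against 3127 and 3293 TPM on the medial side (adjusted p = 0.853). Both genes overlapped between the sides. Leukocyte markers gave 0 calls of 21, with a median of 0. The invariant chain gene CD74, listed as II and the most abundant of them, was at 2330 and 1278 TPM laterally, against 2201 and 990.5 TPM medially, high in batch I and low in batch II on both sides (adjusted p = 0.306). Of 10 Schwann cell and melanocyte markers and of 10 markers of skeletal muscle, cartilage and fat, 0 were called. The muscle, cartilage and fat markers still summed to 393.5 and 311 TPM laterally, against 289.8 and 242.8 TPM medially. Of these 10, 7 had a log2 fold change above 0 and 3 below, with a median of 0.19. DES, ACTA1 and LPL were higher laterally without overlap of the sides, and SOX9 and COL2A1 were lower without overlap. FABP7, a fatty acid binding protein of glia, was at 115 and 140.2 TPM on the lateral side, against 113 and 171 TPM on the medial side (adjusted p = 0.640), and the adipocyte hormone gene ADIPOQ at 131 and 95.1 TPM laterally, against 128 and 88.9 TPM medially (adjusted p = 0.821).

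Many markers of keratinocytes were lower on the lateral side. Of 42 keratinocyte markers tested, 10 were called lower and 0 higher in lateral pulp, against 0.772% called lower over all genes tested. CSTA, FABP5 and PKP1, among the 10, are genes that the study tabulated from these libraries, and are no independent evidence for the list. Of the 42 markers, 33 had a log2 fold change below 0 (56.3% of all genes tested did), with a median of -0.53. Their summed level was 3183.8 and 2868.3 TPM for the lateral libraries, against 5475.1 and 3832.8 TPM in medial pulp, a lateral to medial ratio of 0.582 in batch I and 0.748 in batch II. Of these 42 genes, 34 were at least 2 times higher in remige epithelium than in pulp. Epithelial transcripts were thus read in the pulp of both sides, and all 42 markers were above 0 except ELF3 and KRT18, each at 0 in the lateral library of batch I. Of the 9 markers above 0, 2 of the basal cell layer are given here, chosen after their values were seen. The basal keratin gene KRT14 was at 818 and 574 TPM on the lateral side, against 796 and 586 TPM on the medial side (adjusted p = 0.983), and the hemidesmosome collagen COL17A1 at 41.7 and 50.9 TPM laterally, against 27.2 and 21.9 TPM medially, above the medial libraries on the lateral side (adjusted p = 0.137). Endothelial markers were not called (0 of 19), yet 18 lay below 0 (56.3% of all genes tested did), with a median of -0.26 and summed levels of 1421.2 and 1829.7 TPM for the lateral libraries, against 1786.2 and 2043.6 TPM in medial pulp. PLVAP, which forms the diaphragms of endothelial pores, was at 162 and 222.9 TPM on the lateral side, against 232 and 276 TPM on the medial side (log2 fold change -0.41, SE 0.11, adjusted p = 0.196). HBAA, an alpha globin, was at 302 and 757 TPM laterally, against 463 and 1121 TPM medially and fell (log2 fold change -0.59, SE 0.076, adjusted p = 0.0291), the 1 call among 11 erythroid and thrombocyte markers, whose sums were 598.4 and 1365.2 TPM for the lateral libraries, against 833.2 and 1947.8 TPM for the medial ones. With libraries left out its log2 fold change ran from -1.25 to 0.07. The smooth muscle myosin MYH11 was at 46 and 24.8 TPM on the lateral side, against 18.8 and 13 TPM on the medial side and rose (log2 fold change 1.07, SE 0.13, adjusted p = 0.0279), the 1 call among 12 markers of mural cells and smooth muscle. Of those 12, 5 lay above 0 and 7 below, with a median of -0.06. Their sums were 980.7 and 1088.3 TPM for the lateral libraries, against 959.4 and 1245 TPM for the medial ones. In tissue samples such as these, fewer cells of a type and less RNA per cell cannot be told apart. How much epithelium stayed with the pulp of each side when the tissues were separated is not given.

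**Figure D1:**
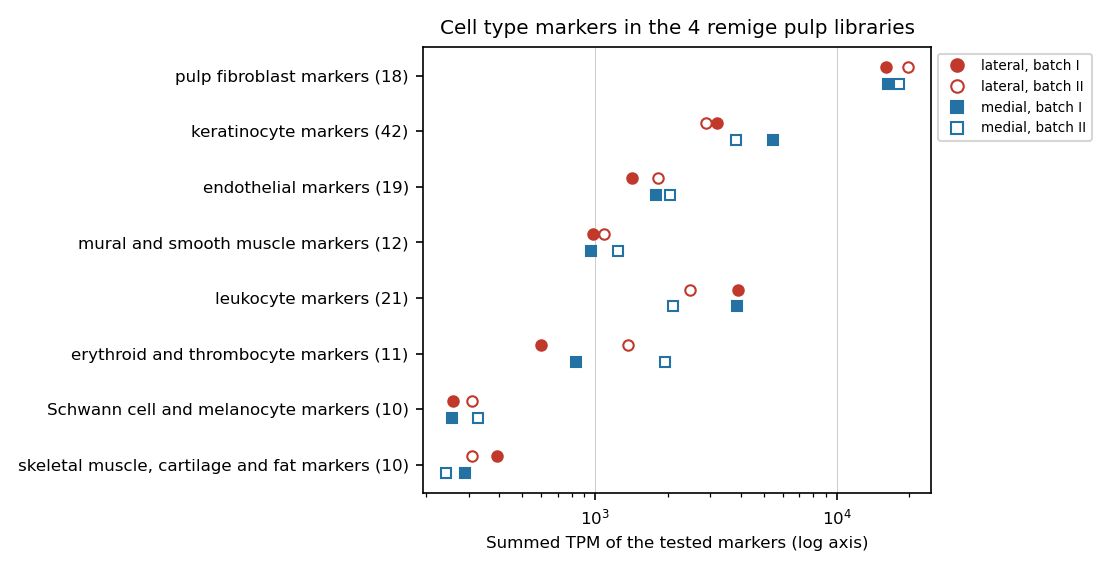
Summed TPM of the tested markers of 8 cell types in the 4 remige pulp libraries (log axis, number of markers in parentheses, circles lateral, squares medial, filled batch I, open batch II). The keratinocyte sums were 3183.8 and 2868.3 TPM in lateral pulp and 5475.1 and 3832.8 TPM in medial pulp, and the fibroblast sums lay close together.

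The largest differences towards the lateral side, among called genes with a symbol and at least 5 TPM, were those of TH, IL17REL, SLC14A2 and GREM1. TH, the rate-limiting enzyme of catecholamine synthesis, was at 7.90 and 27.1 TPM laterally, against 0 and 0.348 TPM medially. The lateral libraries differed from each other, but both exceeded the medial values, which were close to 0 (log2 fold change 3.77, SE 0.30, adjusted p = 0.0117). IL17REL, a receptor-like gene related to the interleukin 17 receptor E, was at 26 and 11.5 TPM on the lateral side, against 1.23 and 0.910 TPM on the medial side (log2 fold change 3.16, SE 0.24, adjusted p = 0.0112). The urea transporter SLC14A2 was at 54.1 and 82.4 TPM laterally, against 9.27 and 7.48 TPM medially (log2 fold change 2.86, SE 0.22, adjusted p = 0.0112). In remige epithelium TH, IL17REL and SLC14A2 each averaged under 1 TPM. WFIKKN2, a secreted protein that binds GDF11 and myostatin, was at 78.8 and 30.0 TPM on the lateral side, against 7.21 and 6.86 TPM on the medial side and was high mainly in batch I (log2 fold change 2.63, SE 0.30, adjusted p = 0.0250). The myelin basic protein gene MBP was at 21.4 and 22.9 TPM laterally, against 4.38 and 2.65 TPM medially (log2 fold change 2.38, SE 0.19, adjusted p = 0.0118). Its batches lay close together on the lateral side. SCG5, a chaperone of a prohormone convertase in the secretory pathway, was at 69.2 and 48.3 TPM on the lateral side, against 13.2 and 11.4 TPM on the medial side (log2 fold change 2.15, SE 0.14, adjusted p = 0.00822). NPTX2, a secreted neuronal pentraxin, was at 21.5 and 24 TPM laterally, against 7.26 and 5.44 TPM medially (log2 fold change 1.70, SE 0.16, adjusted p = 0.0135). HAPLN2, a link protein of hyaluronan, was at 14.9 and 25.7 TPM on the lateral side, against 4.62 and 6.70 TPM on the medial side (log2 fold change 1.65, SE 0.17, adjusted p = 0.0187), and C8orf22 at 10.5 and 20.7 TPM laterally, against 3.38 and 4.11 TPM medially (log2 fold change 1.74, SE 0.19, adjusted p = 0.0244). The locus of the microRNA gga-mir-3526 was read at 3161 and 2197 TPM on the lateral side, against 959 and 618 TPM on the medial side (log2 fold change 1.77, SE 0.068, adjusted p = 0.00117), and values of such short loci, scaled to their length, are uncertain. For each of these genes, GREM1 below included, the sides did not overlap.

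**Figure D2:**
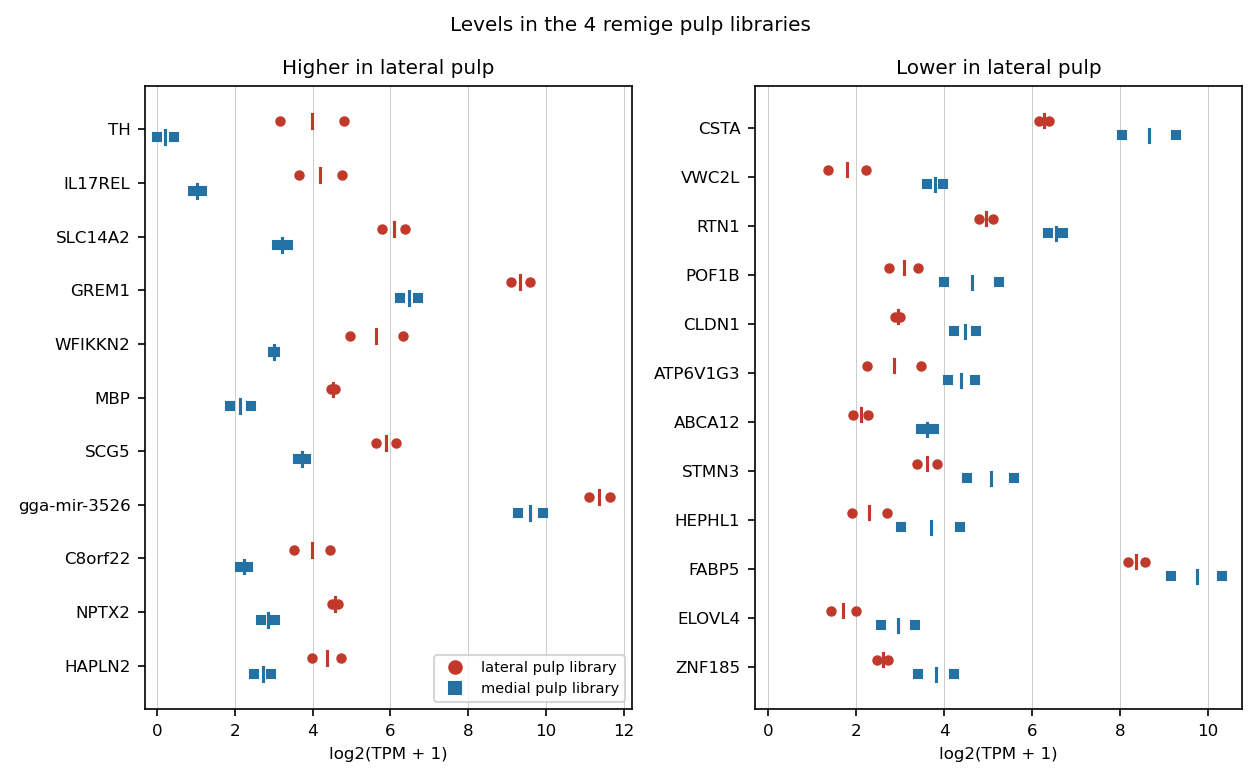
Levels, as log2(TPM + 1), of the named genes with the largest log2 fold changes among called genes with a symbol and at least 5 TPM, 11 towards the lateral side and 12 towards the medial side, in the 4 remige pulp libraries (red circles lateral, blue squares medial, short bars the mean of 2 libraries). The sides are apart for every gene shown, from TH (7.90 and 27.1 TPM laterally, 0 and 0.348 TPM medially) to ZNF185 (5.62 and 4.58 TPM laterally, 17.6 and 9.55 TPM medially).

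The 12 largest differences towards the medial side, again among called genes with a symbol and at least 5 TPM, comprised 8 genes read mainly in epithelium and 4 read mainly in pulp. CSTA, the cysteine protease inhibitor cystatin A of cornifying cells, was at 83 and 69.8 TPM laterally, against 619 and 261 TPM medially (log2 fold change -2.38, SE 0.23, adjusted p = 0.0162). CLDN1, a claudin of tight junctions, was at 7.02 and 6.37 TPM on the lateral side, against 25.4 and 17.8 TPM on the medial side (log2 fold change -1.53, SE 0.096, adjusted p = 0.00768). The fatty acid binding protein FABP5 was at 378 and 288 TPM laterally, against 1278 and 566 TPM medially (log2 fold change -1.36, SE 0.18, adjusted p = 0.0343). Each was lower in both lateral libraries, and each was far higher in remige epithelium, where the mean was 13080 TPM for CSTA, 405 TPM for CLDN1 and 13160 TPM for FABP5. The same held for ABCA12, a lipid transporter of the epidermal barrier, for ELOVL4, which lengthens very long chain fatty acids, for HEPHL1, a ferroxidase, and for the actin-associated genes POF1B and ZNF185. Their log2 fold changes in pulp were -1.51 (ABCA12), -1.25 (ELOVL4), -1.39 (HEPHL1), -1.55 (POF1B) and -1.21 (ZNF185), with adjusted p of 0.0279, 0.0109, 0.0143, 0.0129 and 0.0277 in that order.

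The other 4 were pulp genes. RTN1, of the reticulon family of endoplasmic reticulum proteins, was at 26.8 and 33.5 TPM on the lateral side, against 103 and 81.3 TPM on the medial side, with a mean of 0.455 TPM in epithelium (log2 fold change -1.58, SE 0.19, adjusted p = 0.0279). VWC2L, a secreted protein with a von Willebrand factor C domain related to the BMP antagonist brorin, was at 1.59 and 3.68 TPM laterally, against 11.2 and 14.6 TPM medially (log2 fold change -1.99, SE 0.22, adjusted p = 0.0241). The microtubule regulator STMN3 was at 9.41 and 13.4 TPM on the lateral side, against 22 and 47.5 TPM on the medial side (log2 fold change -1.45, SE 0.18, adjusted p = 0.0286). Both medial libraries exceeded both lateral libraries in these genes. ATP6V1G3, a subunit of the vacuolar proton pump, was at 10.1 and 3.72 TPM laterally, against 24.8 and 16 TPM medially (log2 fold change -1.53, SE 0.20, adjusted p = 0.0291).

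By the levels of lateral and medial pulp libraries together, the genes called in the 2 directions were read mainly in different tissues. Of the 93 genes higher in lateral pulp, 64 (68.8%) were at least 2 times higher in remige pulp than in remige epithelium, and 6 (6.45%) were at least 2 times higher in epithelium. Of the 100 lower genes, 20 were at least 2 times higher in pulp and 70 at least 2 times higher in epithelium. Over all genes tested these shares were 27.7% and 8.54%. The pulp level includes the lateral libraries, so the side difference that made the calls also enters these shares. Against medial pulp alone, the log2 difference of epithelium from pulp was -0.091 for TH, in place of -1.97, and -0.33 for IL17REL, in place of -1.91. Neither would then count as higher in pulp, whereas GREM1 would (-6.01, in place of -7.44). Of 126 genes at least 16 times higher in epithelium, 115 had a negative log2 fold change in pulp, with a median of -0.74, 33 were called lower and 0 higher. The epithelial genes of the called list included the desmosome gene PKP1, at 25 and 20.2 TPM on the lateral side, against 56.5 and 37.2 TPM on the medial side (log2 fold change -1.0, SE 0.083, adjusted p = 0.0118), and the adhesion molecule EPCAM, at 40.1 and 40.4 TPM laterally, against 68.1 and 75.1 TPM medially (log2 fold change -0.81, SE 0.063, adjusted p = 0.0112). PKP3, GRHL1, ESRP2, SFN and MAL2 completed the 10 keratinocyte markers that fell, with log2 fold changes of -0.77, -0.88, -0.55, -0.75 and -0.62 and adjusted p of 0.0411, 0.0258, 0.0281, 0.0219 and 0.0396. The part of epithelial cells in these differences was not tested.

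**Figure D3:**
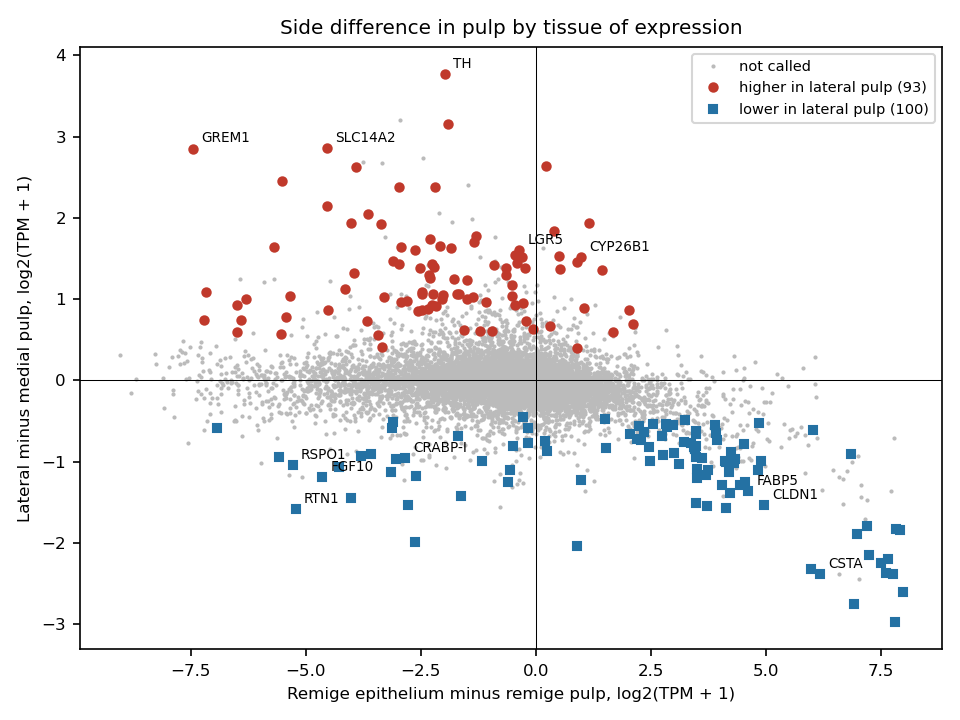
Side difference in pulp (lateral minus medial, log2(TPM + 1)) against the difference between remige epithelium and remige pulp for the 12954 genes tested (red circles 93 called higher, blue squares 100 called lower, grey dots not called). Of the 126 genes at least 16 times higher in epithelium, at the far right, 115 lie below 0, and most genes called higher lie on the left, on the pulp side. The pulp level of the horizontal axis includes the lateral libraries, whose values also made the calls.

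Among BMP antagonists and modulators, 4 of 16 tested rose in lateral pulp, 0 fell and 13 lay above 0, with a median log2 fold change of 0.28, against 0.718% called higher and 43.6% above 0 over all genes tested. GREM1, the secreted BMP antagonist gremlin, was at 768 and 542 TPM on the lateral side, against 104 and 75 TPM on the medial side. Lateral and medial libraries were far apart in both batches (log2 fold change 2.85, SE 0.095, adjusted p = 0.00106), and the epithelial mean was 0.410 TPM. FST, which encodes the activin and BMP binding protein follistatin, was at 42.5 and 49.8 TPM laterally, against 19.8 and 28.1 TPM medially (log2 fold change 0.93, SE 0.11, adjusted p = 0.0256). SOSTDC1, an antagonist of BMPs and a modulator of WNTs, was at 497 and 391 TPM laterally, against 257 TPM in the medial library of batch II, and exceeded the medial side by 1.13 on the log2 scale in batch I and by 0.60 in batch II (log2 fold change 0.87, SE 0.12, adjusted p = 0.0415). HTRA1, a secreted protease that binds ligands of the TGF-beta family, was at 544 and 662 TPM on the lateral side, against 344 and 320.1 TPM on the medial side (log2 fold change 0.85, SE 0.10, adjusted p = 0.0279). All 4 sets of lateral libraries lay above the medial ones. GREM1 and FST are among the genes that the study picked from these libraries, and are no independent evidence for the list. The list does not hold VWC2L, related to the antagonist brorin and called lower, nor brorin itself, VWC2, called higher.

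None of 8 BMP ligands was called, and 7 of them lay below 0, with a median log2 fold change of -0.19, against 56.3% below 0 over all genes. GDF10, a secreted member of the BMP family, was at 48.6 and 22.3 TPM laterally, against 72.8 and 79.9 TPM medially. Both lateral libraries were below both medial libraries, with a much wider gap in batch II, and it did not pass the test (log2 fold change -1.18, SE 0.28, adjusted p = 0.141). BMP6, the most abundant ligand, was at 58.2 and 59.1 TPM on the lateral side, against 62.4 and 73.7 TPM on the medial side (adjusted p = 0.539). Among 21 receptors, SMADs and response genes, 3 homeobox genes that respond to BMPs fell and 0 rose, against 0.772% called lower over all genes. Of the 21, 9 lay above 0 and 12 below, with a median log2 fold change of -0.03. ID1, ID2, ID3 and MSX1 of that list, chosen after their values were seen, were not called. Their log2 fold changes were -0.34, 8e-04, -0.19 and -0.005, with adjusted p of 0.1625, 0.999, 0.561 and 0.995 in that order. MSX2 was at 23.8 and 19.7 TPM laterally, against 47.8 and 36.6 TPM medially (log2 fold change -0.92, SE 0.065, adjusted p = 0.0108), DLX3 at 10.1 and 10.7 TPM on the lateral side, against 18.8 and 19.3 TPM on the medial side (log2 fold change -0.82, SE 0.071, adjusted p = 0.0128), and DLX5 at 4.65 and 4.45 TPM laterally, against 8.46 and 9.45 TPM medially (log2 fold change -0.84, SE 0.11, adjusted p = 0.0291). These 3 genes were also read in epithelium, at means of 213 TPM (MSX2), 82.3 TPM (DLX3) and 82.6 TPM (DLX5), beside the lower keratinocyte sums of lateral pulp given above, and the part of epithelial cells was not tested.

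Of 45 WNT ligands, receptors and regulators, 4 rose and 2 fell. Over all genes tested, 0.718% were called higher and 0.772% lower, and 43.6% lay above 0 and 56.3% below 0. Of 8 secreted WNT antagonists tested, 3 rose, 0 fell and 6 lay above 0, with a median log2 fold change of 0.34. Of 4 R-spondins, 2 fell, 0 rose and 3 lay below 0, with a median of -0.81. Of 13 WNT ligands and 13 WNT receptors, 0 were called. DKK2, a Dickkopf antagonist of the LRP co-receptors, was at 20.4 and 14.8 TPM on the lateral side, against 6.51 and 3.62 TPM on the medial side (log2 fold change 1.64, SE 0.14, adjusted p = 0.0128). WIF1, which binds WNT ligands, was at 24.3 and 16.6 TPM laterally, against 9.12 and 5.57 TPM medially (log2 fold change 1.37, SE 0.11, adjusted p = 0.0118). The sides did not overlap in either gene. SFRP2, a frizzled-related protein, was at 266 and 165 TPM on the lateral side, against 168 and 87.8 TPM on the medial side, so the sides overlapped between batches while lateral exceeded medial within each (log2 fold change 0.78, SE 0.10, adjusted p = 0.0327).

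RSPO1, an R-spondin, was at 238 and 141 TPM laterally, against 405 and 354 TPM medially (log2 fold change -1.04, SE 0.14, adjusted p = 0.0354). RSPO3 was at 17.4 and 4.67 TPM on the lateral side, against 31.5 and 10.7 TPM on the medial side and was low in batch II on both sides (log2 fold change -0.93, SE 0.14, adjusted p = 0.0450). The sides of RSPO3 overlapped across batches, and its log2 fold change ran from -1.78 to -0.08 with libraries left out. LGR5, a receptor for R-spondins and itself a known WNT target, went the other way, at 9.62 and 12 TPM laterally, against 2.41 and 3.40 TPM medially (log2 fold change 1.60, SE 0.12, adjusted p = 0.0112). None of 12 WNT response genes was called. TNFRSF19, the most abundant of them, was at 316 and 357 TPM on the lateral side, against 297 and 306 TPM on the medial side (adjusted p = 0.433).

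**Figure D4:**
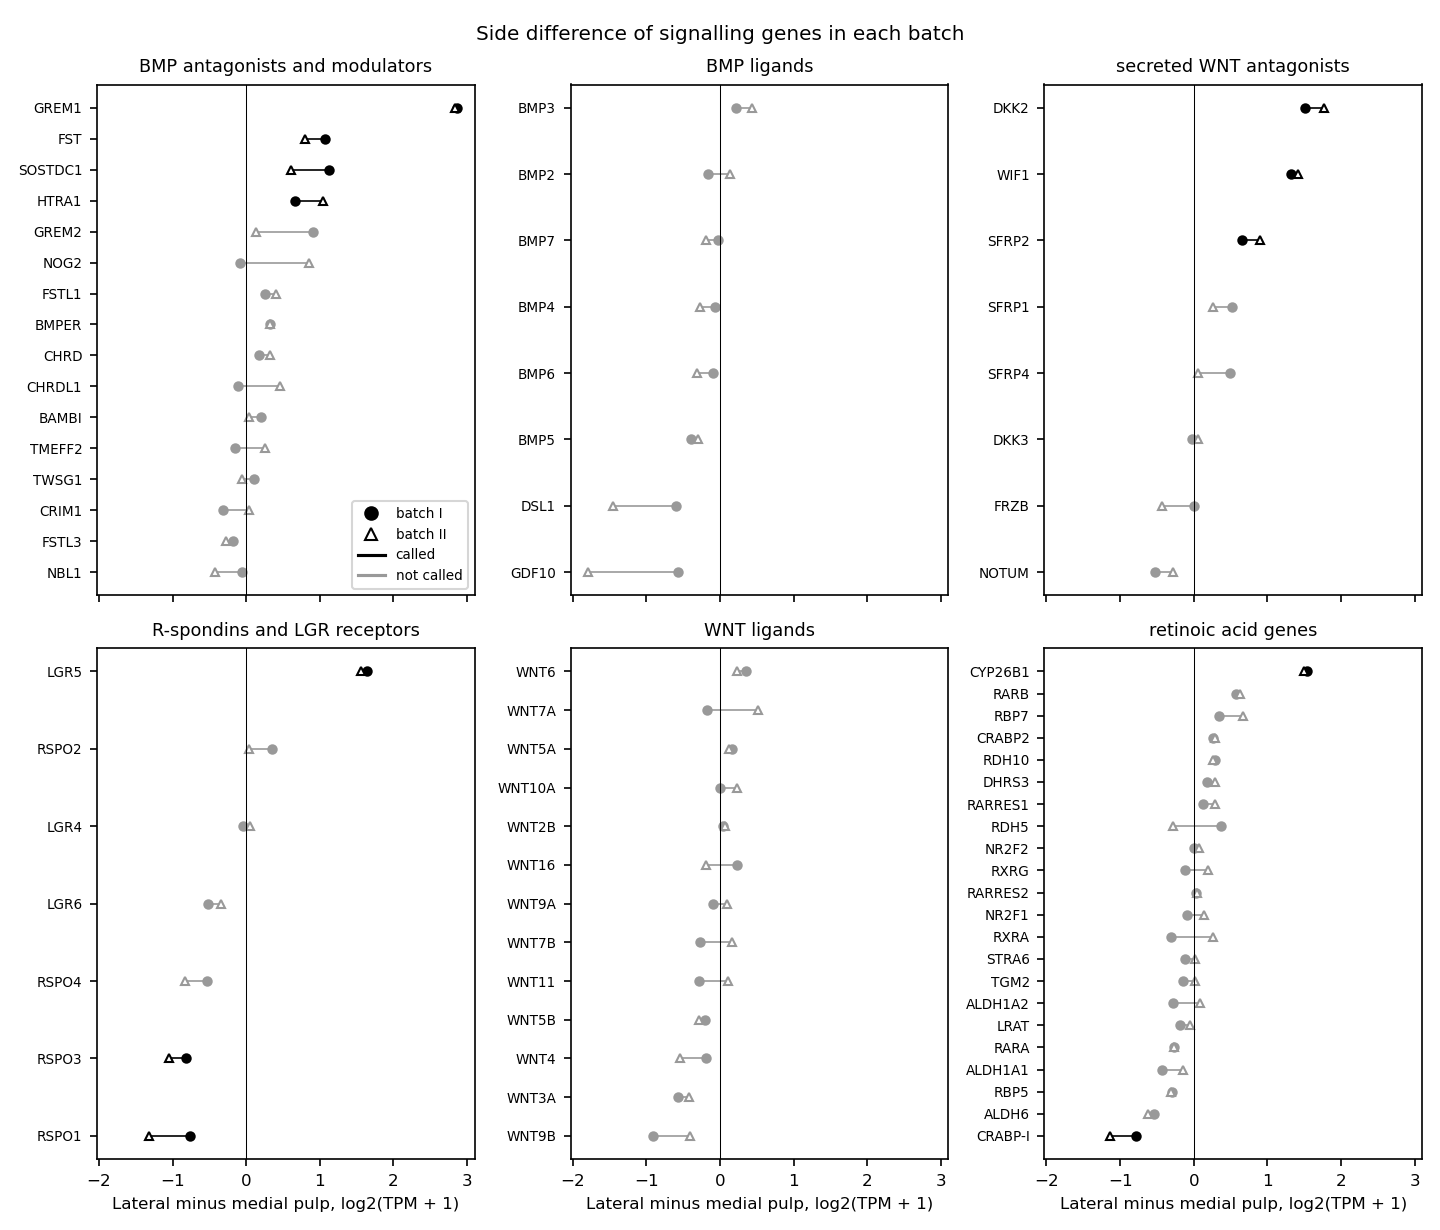
Side difference in pulp (lateral minus medial, log2(TPM + 1)) of each tested gene of 6 groups, batch I as filled circles and batch II as open triangles, black where called and grey where not. GREM1, DKK2, WIF1, LGR5 and CYP26B1 lie right of 0 in both batches, and RSPO1, RSPO3 and CRABP-I left of 0 in both.

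Of 22 retinoic acid genes, 1 rose and 1 fell. CYP26B1, which breaks down retinoic acid, was at 26.3 and 56.3 TPM laterally, against 8.39 and 19.4 TPM medially. It was higher in batch II than in batch I on both sides, and the log2 fold change was nearly the same in the 2 batches (1.52, SE 0.09, adjusted p = 0.00631). CRABP1 (CRABP-I in the files), which binds retinoic acid inside cells, was at 622 and 506 TPM on the lateral side, against 1070 and 1110 TPM on the medial side (log2 fold change -0.96, SE 0.089, adjusted p = 0.0137). The sides did not overlap for either gene. The study picked both from these libraries, so they are no independent evidence for the list. The synthesizing enzyme ALDH1A3, listed as ALDH6, was at 32.2 and 11.3 TPM laterally, against 47 and 17.9 TPM medially (adjusted p = 0.10). The receptors RARA, at 59.5 and 62.8 TPM on the lateral side, against 72.2 and 75.5 TPM on the medial side, and RARB, at 27.9 and 26 TPM laterally, against 18.4 and 16.5 TPM medially, did not pass the test (adjusted p = 0.109 for RARA and 0.0806 for RARB).

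FGF10, a mesenchymal ligand that signals to epithelium, was at 19 and 13.1 TPM on the lateral side, against 42.4 and 32.9 TPM on the medial side and fell (log2 fold change -1.19, SE 0.13, adjusted p = 0.0231), the 1 call among 25 FGF genes. Hedgehog, TGF-beta and activin, Notch, and EGF, IGF, PDGF, VEGF and LRIG genes gave 0 calls of 14, 18, 15 and 33. Their most abundant members were the Hedgehog co-receptor BOC, at 78.8 and 107 TPM laterally, against 95.9 and 140.3 TPM medially (adjusted p = 0.163), and the latent TGF-beta binding protein LTBP3, at 437 and 513 TPM on the lateral side, against 429.9 and 446 TPM on the medial side (adjusted p = 0.697). The Notch modifier LFNG was at 146 and 203 TPM laterally, against 146 and 189 TPM medially (adjusted p = 0.751). The IGF binding protein IGFBP4 was at 1113 and 1352 TPM on the lateral side, against 874 and 874 TPM on the medial side, with both lateral libraries above the medial ones (log2 fold change 0.49, SE 0.11, adjusted p = 0.117). LRIG1, a feedback inhibitor of EGF receptors, was at 74.3 and 101 TPM laterally, against 40.9 and 35 TPM medially, also without overlap (log2 fold change 1.17, SE 0.19, adjusted p = 0.0556).

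Transcription factors that mark position were called in both directions. Of 45 tested, 2 rose and 2 fell, against 0.718% called higher and 0.772% called lower over all genes tested. Their median log2 fold change was -0.15. EYA2, a transcriptional co-activator, was at 217 and 230.1 TPM on the lateral side, against 117 and 118 TPM on the medial side and nearly equal in the 2 batches on each side (log2 fold change 0.92, SE 0.094, adjusted p = 0.0185). TBX15, a T-box factor of limb and skin mesenchyme, was at 106 and 148 TPM laterally, against 59.9 and 92.3 TPM medially (log2 fold change 0.74, SE 0.11, adjusted p = 0.0483). LMX1B, known for dorsal identity in the limb, was at 13.2 and 12.3 TPM on the lateral side, against 23.5 and 23.4 TPM on the medial side and fell (log2 fold change -0.83, SE 0.09, adjusted p = 0.0229), as did DLX5. LMX1B and DLX5 were also read in epithelium, at means of 52.2 and 82.6 TPM, against 0.858 TPM for EYA2 and 0.159 TPM for TBX15. The part of epithelial cells in the 2 lower genes was not tested. Of 23 HOX genes 0 were called, 18 lay below 0, against 56.3% of all genes, and the median was -0.20. The most abundant, HOXA7, was at 54.2 and 49.6 TPM laterally, against 62.4 and 64 TPM medially (adjusted p = 0.220). Of 26 SOX, FOX, KLF and GATA factors, KLF4 alone was called, at 57.8 and 56.5 TPM on the lateral side, against 89.3 and 82.8 TPM on the medial side (log2 fold change -0.58, SE 0.061, adjusted p = 0.0198).

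Of 29 collagens 0 were called, with a median of 0.02, against 1.49% of all genes called. Of 55 matrix glycoproteins and proteoglycans 2 rose and 0 fell, against 0.718% of all genes called higher. FBLN5, a fibulin of elastic fibres, was at 98.6 and 128 TPM laterally, against 47.5 and 61.9 TPM medially (log2 fold change 1.04, SE 0.12, adjusted p = 0.0272). The related EFEMP1 was at 253 and 303 TPM on the lateral side, against 165 and 168 TPM on the medial side (log2 fold change 0.73, SE 0.09, adjusted p = 0.0279). Both fibulins were higher in each lateral library than in either medial one. Of 42 proteases and inhibitors 2 serpins rose and 0 genes fell, against the same 0.718% of all genes called higher. SERPINF1, which encodes pigment epithelium-derived factor, was at 1498 and 1581 TPM laterally, against 901 and 939 TPM medially (log2 fold change 0.74, SE 0.086, adjusted p = 0.0258), and SERPINE2, an inhibitor of thrombin and plasminogen activators, at 554 and 363 TPM on the lateral side, against 329 and 254 TPM on the medial side (log2 fold change 0.63, SE 0.083, adjusted p = 0.0305).

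Among 27 neuropeptide and secretory granule genes, SCG5 and PAM rose and RTN1 fell. PAM, which amidates peptide hormones, was at 100.1 and 104 TPM laterally, against 69.1 and 64.9 TPM medially (log2 fold change 0.60, SE 0.074, adjusted p = 0.0279). Of 51 axon guidance genes SLIT3 alone was called, at 20.8 and 39.8 TPM on the lateral side, against 41.2 and 58.1 TPM on the medial side (log2 fold change -0.74, SE 0.11, adjusted p = 0.0463). Of 51 solute carriers and channels SLC14A2 and SLC9A7 rose. The sodium and proton exchanger SLC9A7 was at 27.7 and 45.5 TPM laterally, against 14 and 22.6 TPM medially (log2 fold change 0.96, SE 0.12, adjusted p = 0.0291). The chemokine CXCL14, listed as JSC, was at 1173 and 762 TPM on the lateral side, against 483 and 189 TPM on the medial side, higher in batch I on both sides (log2 fold change 1.64, SE 0.16, adjusted p = 0.0169), and was the 1 call among 32 interferon and inflammation genes. Of 23 immediate early genes KLF4 and IER5 fell. IER5 was at 71 and 104 TPM laterally, against 95.4 and 146 TPM medially (log2 fold change -0.45, SE 0.061, adjusted p = 0.0347). The carbonic anhydrase CA12, the 1 call among 33 hypoxia and glycolysis genes, was at 0.411 and 0.434 TPM on the lateral side, against 2.01 and 1.66 TPM on the medial side (log2 fold change -0.99, SE 0.13, adjusted p = 0.0327). CA12 was read mainly in epithelium, at a mean of 10.7 TPM, and its pulp levels were low. Under other settings its log2 fold change ran from -1.88 to -0.33. Of 66 cell cycle genes 0 were called, with a median of -0.05, and the replication clamp PCNA was at 404 and 451 TPM laterally, against 353 and 433 TPM medially (adjusted p = 0.438).

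A list of 23 genes taken from those that the study discussed or tabulated for pulp, in part picked from these libraries, was also counted. It leaves out keratinocyte genes that the study tabulated too, CSTA, FABP5 and PKP1 among them, and its directions are not independent evidence. Of these 23, 10 rose and 3 fell in lateral pulp. Beside GREM1, FST, CYP26B1, EYA2, FBLN5, SCG5 and SLC9A7, the higher ones were LRRC17 (listed as P37NB), a secreted leucine-rich repeat protein, at 322 and 218 TPM on the lateral side, against 156 and 98.6 TPM on the medial side (log2 fold change 1.09, SE 0.095, adjusted p = 0.0128), the protein kinase A inhibitor PKIA, at 75.5 and 68.5 TPM laterally, against 37.2 and 40.1 TPM medially (log2 fold change 0.88, SE 0.11, adjusted p = 0.0281), and the small membrane protein SMIM5, at 31.2 and 37.8 TPM on the lateral side, against 17.9 and 16.3 TPM on the medial side (log2 fold change 0.97, SE 0.12, adjusted p = 0.0295). Lateral and medial libraries did not overlap in these. CRABP1, FGF10 and MSX2 were the lower ones. Where these genes are among the called members of the lists above, they are no independent evidence for those lists either.

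Of the 10 that did not pass, GDF10, ALDH1A3, RARA, RARB and LRIG1 are given above. ASIP, which blocks the melanocortin receptor, was at 102 and 79.3 TPM laterally, against 56.4 and 24.8 TPM medially (adjusted p = 0.0627). LAMC3, a laminin chain, was at 38.1 and 116 TPM on the lateral side, against 95.8 and 193 TPM on the medial side (adjusted p = 0.0509). The protein C receptor PROCR was at 44.6 and 32.2 TPM laterally, against 102 and 50.6 TPM medially (adjusted p = 0.0652). All 3 had the same sign in both batches. The kinase STK32A was at 42.8 and 23.4 TPM on the lateral side, against 77.3 and 67.2 TPM on the medial side (adjusted p = 0.0508), and the adhesion protein VTN at 21.6 and 25.3 TPM laterally, against 41.4 and 44 TPM medially (adjusted p = 0.0668).

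The side difference was then set against that of the remige epithelium libraries with the same batch labels. In lateral against medial epithelium 60 genes were called (0.463%), 31 higher and 29 lower. Of these, 9 were also called in pulp (15% of the epithelial calls and 4.66% of the pulp calls), 5 of them in the same direction. Both tissues share the estimate of a gene's spread, so calls in pulp and in epithelium are not independent. The side difference itself differed between pulp and epithelium for 52 genes (0.401%), 29 more positive and 23 more negative in pulp, and 42 of the 52 were also called in pulp. The pulp difference is part of the tested value, so this overlap is in part built in. GREM1 was at 0.327 and 0.850 TPM in lateral epithelium, against 0.102 and 0.361 TPM in medial epithelium (pulp difference minus epithelial difference on the log2 scale 2.50, SE 0.13, adjusted p = 0.00640). Below 1 TPM the log2(TPM + 1) scale leaves little room for a side difference, so this value for GREM1 mostly restates its pulp difference. WIF1 was at 13.2 and 11.9 TPM in lateral epithelium, against 24.3 and 26.9 TPM in medial epithelium, with the medial side higher in epithelium (difference between tissues 2.34, SE 0.16, adjusted p = 0.0119). CYP26B1 was at 35.1 and 60.7 TPM in lateral epithelium, against 37.1 and 53.3 TPM in medial epithelium (difference between tissues 1.46, SE 0.13, adjusted p = 0.0251). The direction of WIF1 was thus opposite in the 2 tissues, and epithelial levels of CYP26B1 overlapped between the sides.

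Some genes that were lower in lateral pulp were not lower in lateral epithelium. CSTA was at 13280 and 16420 TPM in lateral epithelium, against 8481 and 14140 TPM in medial epithelium (difference between tissues -2.82, SE 0.33, adjusted p = 0.0479), and CLDN1 at 399.6 and 449.7 TPM in lateral epithelium, against 362 and 409 TPM in medial epithelium (difference between tissues -1.67, SE 0.14, adjusted p = 0.0218). Both had log2 fold changes above 0 in epithelium. CXCL14 (JSC) was at 6.67 and 6.89 TPM in lateral epithelium, against 12.8 and 13 TPM in medial epithelium (difference between tissues 2.48, SE 0.23, adjusted p = 0.0251). Both lateral libraries of epithelium lay below the medial ones, but it was not called there (adjusted p = 0.103), and it was higher on the lateral side of pulp. FST, CRABP1 (CRABP-I), LGR5 and SFRP2 did not pass the test of a difference between tissues (adjusted p = 0.130, 0.365, 0.0683 and 0.382), and each had the same sign in both tissues. LGR5 was at 13.1 and 11.9 TPM in lateral epithelium, against 1.25 and 0.883 TPM in medial epithelium, and CRABP1 at 80.8 and 87.5 TPM in lateral epithelium, against 134 and 142 TPM in medial epithelium.

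Genes with the smallest adjusted p of this difference included 4 that the files give by identifier only, so no function is named. ENSGALG00000026319 was at 1.35 and 5.25 TPM on the lateral side, against 12.8 and 38.5 TPM on the medial side (log2 fold change -2.61, SE 0.057, adjusted p = 2.00e-04), and ENSGALG00000029144 at 86.2 and 53 TPM laterally, against 469.8 and 248 TPM medially (log2 fold change -2.32, SE 0.085, adjusted p = 0.00117). ENSGALG00000013664 was at 0.694 and 3.22 TPM on the lateral side, against 5.18 and 13.8 TPM on the medial side (log2 fold change -1.84, SE 0.076, adjusted p = 0.00118). These 3 were far higher in epithelium, with means of 3183, 9856 and 1479 TPM in the order named. Their epithelial log2 fold changes were 0.74, 0.52 and 0.70 (adjusted p = 0.0234, 0.0760 and 0.0431), above 0 in epithelium and below 0 in pulp. ENSGALG00000029144 was not called in epithelium. Epithelial levels of ENSGALG00000026319 and ENSGALG00000013664 overlapped between the sides across batches. ENSGALG00000002454 was at 35.6 and 31.1 TPM laterally, against 4.41 and 4.55 TPM medially (log2 fold change 2.64, SE 0.11, adjusted p = 0.00118), and at 12.1 and 22.1 TPM in lateral epithelium, against 10.0 and 18.9 TPM in medial epithelium (difference between tissues 2.41, SE 0.15, adjusted p = 0.0103).

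**Figure D5:**
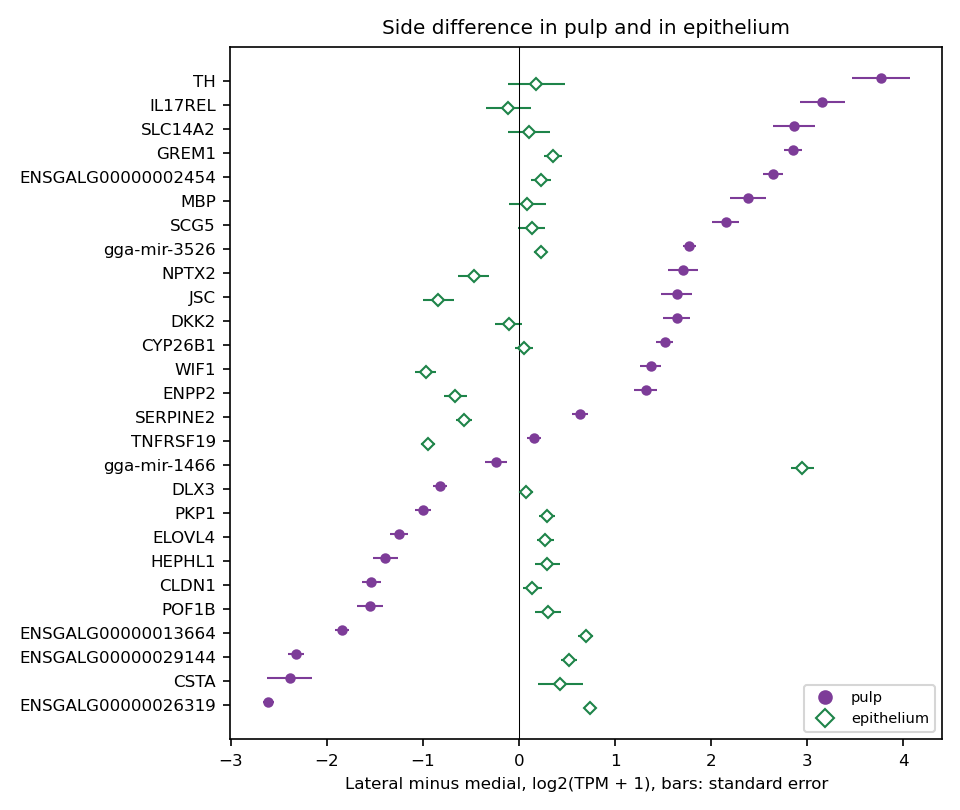
Side difference (lateral minus medial, log2(TPM + 1)) in pulp (purple circles) and in epithelium (open green diamonds) for the 27 named genes whose differences differ between the tissues, with standard errors. WIF1, ENPP2, SERPINE2 and JSC lie above 0 in pulp and below 0 in epithelium, and gga-mir-1466 and TNFRSF19 lie further from 0 in epithelium than in pulp.

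The narrow and wide vanes of body plumes offered a second pair of values. These come from a separately normalized table, with dorsal pulp as the narrow-vane and breast pulp as the wide-vane side, and were set beside the remige values with no test. Of the 93 genes higher in lateral remige pulp, 53 (57%) had both dorsal libraries above both breast libraries, against 27.5% of all genes tested, and 23 had both below. Of the 100 lower genes, 64 had both dorsal libraries below, against 38.9% of all genes, and 15 above. Of those 100, 70 were at least 2 times higher in remige epithelium than in remige pulp. Among the keratinocyte markers, CLDN1 was at 4.79 and 3.39 TPM in dorsal pulp, against 12.4 and 29.5 TPM in breast pulp. EPCAM was at 49.2 and 60.5 TPM in dorsal pulp, against 67.9 and 145.7 TPM in breast pulp, whereas PKP3 overlapped. The part of epithelial transcripts in the count of 64 was not tested. SLC14A2 was at 9.28 and 8.42 TPM in dorsal pulp, against 0.502 and 0.700 TPM in breast pulp, EYA2 at 77.8 and 71.2 TPM in dorsal pulp, against 8.18 and 8.03 TPM in breast pulp, and FGF10 at 3.28 and 3.71 TPM in dorsal pulp, against 32.4 and 28.9 TPM in breast pulp. In these genes the plumes had the direction of the remiges. EYA2 and FGF10 are among the genes the study tabulated, and its screen required the same direction of change in remiges and plumes. Their direction in plumes is thus no independent evidence. IL17REL was at 785 and 614 TPM in dorsal pulp, against 76.2 and 57.7 TPM in breast pulp, far above its remige levels on both sides. LGR5 was at 95.4 and 79 TPM in dorsal pulp, against 14.9 and 17.7 TPM in breast pulp, and RSPO3 at 0.338 and 0.253 TPM in dorsal pulp, against 6.83 and 7.56 TPM in breast pulp, again in the direction seen in remiges.

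Other genes of the remige list went the opposite way in plumes. RTN1 was at 268 and 262 TPM in dorsal pulp, against 43.9 and 39.1 TPM in breast pulp, and STMN3 at 63.2 and 76.5 TPM in dorsal pulp, against 15.9 and 15.6 TPM in breast pulp. Both were lower in lateral than in medial remige pulp. HTRA1 was at 164 and 186 TPM in dorsal pulp, against 336 and 309 TPM in breast pulp, DKK2 at 12.9 and 10.3 TPM in dorsal pulp, against 20.2 and 16.9 TPM in breast pulp, and CXCL14 (JSC) at 1172 and 797 TPM in dorsal pulp, against 1525 and 1310 TPM in breast pulp, each lower in dorsal pulp while higher in lateral remige pulp. WFIKKN2, at 78.8 and 30.0 TPM in lateral remige pulp, was at 0.134 and 0.250 TPM in dorsal pulp, against 0.276 and 0.0589 TPM in breast pulp.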

How the data were processed

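Libraries of 50 bp single-end reads were mapped by the authors to galGal4 with Partek Flow (the labels also name TopHat2, with no role given), and the authors deposited RPKM per gene, 1 table for remiges and 1 for plumes, each normalized separately. The alignment counts per library are those the authors deposited with the tables. RPKM are not counts, gene lengths are not given in the sources used here, and counting error was not computed. The deposited RPKM were rescaled to TPM, which the authors did not deposit, with a total of 1000000 per library. Differences were tested in R 4.3.3 with limma 3.58.1 (lmFit and eBayes with a trend) on log2(TPM + 1) over 8 remige libraries, with a block for each pair of sides of a batch and tissue and a side effect in each tissue. Genes that averaged 1 TPM or more in any of the 4 remige groups were tested, p-values were adjusted by Benjamini-Hochberg over 12954 genes, and a gene was called at an adjusted p under 0.05. The test was checked on simulated data, drawn with the spread and the blocks of the same fit. That check cannot tell whether the pairing and the spread shared by the tissues hold for these libraries. The pairing comes from the batch labels, and batch differences of the sides correlated across genes (r = 0.731 in pulp and 0.805 in epithelium), though genes are not independent replicates. The side differences of batch I and batch II correlated less (r = 0.264 in pulp and 0.455 in epithelium). Any shift shared by the libraries of a batch would raise the correlation of batch differences. That correlation therefore cannot show that the sides came from the same follicles.

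Named genes were the 12 called genes per direction with the largest change, a symbol and at least 5 TPM on the higher side, the called members of each gene list (or its most abundant member), a list of 23 genes from those the study examined in pulp, and the 6 genes with the smallest adjusted p for the difference between tissues. A gene that the rule took is not reported here. Others are said to be chosen after their values were seen. The members and lists were chosen with earlier results of these data known. Alternatives were other pseudocounts, filters, scalings, blocks and variance settings, and fits that left out libraries. Figures were drawn with matplotlib 3.10.9. The reference annotation was of another assembly than the files, so no coordinates or sequences are given.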

Additional observations from a re-analysis of the deposited data

Results flagged for a closer look

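In 27 named genes the difference between lateral and medial differed between pulp and epithelium by limma's test of that difference (adjusted p under 0.05), which is what singled them out. The values are the pulp difference minus the epithelial difference on the log2(TPM + 1) scale, and several of these genes were chosen for their pulp difference, which is part of the value. TH, IL17REL, SLC14A2, GREM1, MBP, SCG5 and DKK2 averaged under 1 TPM in remige epithelium. At such levels this scale leaves little room for an epithelial difference, so their values mostly restate the pulp difference. The genes with a larger value in pulp were TH (3.58), IL17REL (3.27), SLC14A2 (2.76), GREM1 (2.50), JSC (2.48), ENSGALG00000002454 (2.41), WIF1 (2.34), MBP (2.30), NPTX2 (2.18), SCG5 (2.02), ENPP2 (1.98), DKK2 (1.75), gga-mir-3526 (1.55), CYP26B1 (1.46), SERPINE2 (1.20) and TNFRSF19 (1.10). Those with a smaller value in pulp were ENSGALG00000026319 (-3.34), gga-mir-1466 (-3.18), ENSGALG00000029144 (-2.84), CSTA (-2.82), ENSGALG00000013664 (-2.54), POF1B (-1.85), HEPHL1 (-1.69), CLDN1 (-1.67), ELOVL4 (-1.53), PKP1 (-1.29) and DLX3 (-0.89).

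The locus gga-mir-1466, a short microRNA locus with uncertain values, was at 56.9 and 71.6 TPM on the lateral side, against 60.6 and 93.5 TPM on the medial side (log2 fold change -0.24, SE 0.12, adjusted p = 0.461), and at 9.99 and 16.1 TPM in lateral epithelium, against 0.541 and 1.04 TPM in medial epithelium. TNFRSF19 was at 240.4 and 219.6 TPM in lateral epithelium, against 499.5 and 393 TPM in medial epithelium, and was not called in pulp. With 2 libraries a group no library could be tested for standing apart.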

How the results depend on the processing

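The 193 pulp calls numbered 169 to 283 with a pseudocount of 5 TPM (235), a minimum of 25 TPM (169, of which 36.1% were higher, against 48.2% of the 193), the RPKM as deposited (283), equal upper quartiles (190), quantile normalization (191), robust variance moderation (277) or pulp libraries only (251). They numbered 112 with a pseudocount of 0.1 TPM, 7 with no filter on low values, 36 (61.1% higher) with 1 batch term shared by both tissues in place of the replicate block per pair, 0 with no replicate block, and 0 to 63 when libraries were left out. The 60 epithelial calls numbered 0 with no filter, 115 in RPKM, 29 with quantile normalization, 164 with robust moderation, 1 with no replicate block, 6 with the shared batch block, 0 in epithelium libraries only, and 0 to 13 when libraries were left out. Of the epithelial calls 66.7% were higher with a pseudocount of 0.1 TPM, 41.3% with 5 TPM, 35.7% in RPKM, 68.3% with equal upper quartiles and 72.4% with quantile normalization, against 51.7%. The 52 differences between tissues numbered 1 with no filter, 190 in RPKM, 87 with quantile normalization, 159 with robust moderation, 0 with no replicate block, 6 with the shared batch block and 0 to 24 when libraries were left out, and 39% of them were positive with a minimum of 25 TPM, against 55.8%. The cause of these changes was not tested. The keratinocyte markers called lower numbered 0 to 14 and the BMP antagonists called higher 0 to 4 over the alternatives, which were chosen after seeing the data.

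Of the 86 named genes called in pulp, GREM1, gga-mir-3526, ENSGALG00000002454, ENSGALG00000013664, ENSGALG00000026319 and ENSGALG00000029144 (6 in all) had an adjusted p under 0.05 in every alternative that kept the block per pair and all libraries. HBAA was the only 1 of the 86 to change sign, from -1.25 to 0.07 over the fits that left out libraries. Among genes not called, the log2 fold change spanned 0 in those fits for ALDH6 (-1.30 to 0.14), gga-mir-1466 (-0.54 to 0.07), LFNG (-0.18 to 0.29), FABP7 (-0.43 to 0.17), LTBP3 (0 to 0.23), PCNA (-0.02 to 0.27), COL1A2 (-0.43 to 0.13), II (-0.35 to 0.80), VIMENTIN (-0.05 to 0.10), KRT14 (-0.25 to 0.26) and ADIPOQ (-0.19 to 0.33). With 2 libraries a group and no counts, the error of a single library's value is unknown.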

Other observations

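The genes of this and the following paragraphs were named after their values were seen. They belong to no list, so they stand for single genes and not for a group. DCX, a microtubule protein of migrating neurons, was at 28.9 and 21.1 TPM laterally, against 9.86 and 7.39 TPM medially (log2 fold change 1.43, SE 0.13, adjusted p = 0.0128). GABRA3, a subunit of the GABA receptor, was at 43.8 and 35.9 TPM on the lateral side, against 21.4 and 14.4 TPM on the medial side (log2 fold change 1.13, SE 0.13, adjusted p = 0.0265). CACNG3, an auxiliary subunit of glutamate receptors, was at 9.82 and 10.4 TPM laterally, against 2.95 and 2.40 TPM medially (log2 fold change 1.60, SE 0.15, adjusted p = 0.0137). All lateral libraries lay above the medial ones in these genes, and each gene averaged under 1 TPM in remige epithelium. The serotonin receptor HTR2A and the neurite protein NRN1 were at lower levels, at 3.56 and 3.30 TPM laterally, against 1.11 and 0.666 TPM medially for HTR2A and 3.20 and 3.79 TPM laterally, against 0.560 and 0.791 TPM medially for NRN1 (adjusted p = 0.0265 and 0.0148). None of 10 Schwann cell and melanocyte markers was called.

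Other genes called higher in lateral pulp were picked in the same way. CYP24A1, which inactivates vitamin D, was at 30.9 and 30.3 TPM on the lateral side, against 9.87 and 11.7 TPM on the medial side (log2 fold change 1.43, SE 0.13, adjusted p = 0.0128). The prolactin receptor PRLR was at 39 and 13.6 TPM laterally, against 14.2 and 4.02 TPM medially (log2 fold change 1.47, SE 0.13, adjusted p = 0.0130). ENPP2, which makes lysophosphatidic acid, was at 147 and 209.6 TPM on the lateral side, against 52.8 and 91.9 TPM on the medial side (log2 fold change 1.32, SE 0.12, adjusted p = 0.0135). The lateral side was higher within both batches. The neutral endopeptidase MME was at 132 and 133 TPM laterally, against 69.8 and 62 TPM medially (adjusted p = 0.0343), the matricellular NOV at 162 and 135 TPM laterally, against 74.3 and 67.2 TPM medially (adjusted p = 0.0118), and the BMP antagonist brorin, VWC2, at 10.8 and 15.1 TPM laterally, against 4.36 and 4.24 TPM medially (adjusted p = 0.0281). The troponin TNNC1 was at 139 and 120.2 TPM laterally, against 58.1 and 64.4 TPM medially (adjusted p = 0.0187).

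Among pulp genes that were lower laterally, the 5′-nucleotidase NT5E was at 24.4 and 31.6 TPM laterally, against 52.3 and 58.4 TPM medially (log2 fold change -0.97, SE 0.11, adjusted p = 0.0229), and CORIN, a membrane protease known from dermal papilla and heart in mouse, at 57.3 and 41.7 TPM on the lateral side, against 120.4 and 74.8 TPM on the medial side (log2 fold change -0.94, SE 0.14, adjusted p = 0.0483). CERS3, FA2H and SPTLC3, which encode enzymes of ceramide and sphingolipid synthesis, fell, with log2 fold changes of -1.01, -0.96 and -0.73 (adjusted p = 0.0185, 0.0402 and 0.0395) and epithelial means of 282, 159 and 51.6 TPM. The gap junction gene GJB6 was at 15.8 and 12 TPM laterally, against 33.6 and 30.8 TPM medially (adjusted p = 0.00999), with an epithelial mean of 288 TPM.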
